A study of Mus musculus with 24 samples.

Results

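Doxycycline against vehicle is the comparison of this series in which the MYC transgene itself was switched off, and it rests on 5 of the 24 libraries. They were chosen by their labels: 2 libraries titled DOX_24h and 3 titled Veh_24h, each made from a liver tumour (hepatocellular carcinoma) of an FVB/N mouse carrying the Lap-tTA and Tet-O-MYC transgenes. The Lap promoter drives the tetracycline transactivator in hepatocytes, and the transactivator drives a human MYC transgene unless doxycycline is present. All groups carry both transgenes, and in all of them doxycycline had been withdrawn at 4 weeks of age, so that MYC was on while the tumours grew. Weekly magnetic resonance imaging began 4 to 5 weeks later, and tumour-bearing mice were then assigned to treatment. The DOX_24h mice drank water with doxycycline at 100 µg/ml, which turns the transgene off again. The Veh_24h mice received the vehicle (Transcutol, Solutol HS 15 and water) at 10 mg/kg into the peritoneum once a week. Tumours were taken 24 h after a second dose, given 7 days after the first. How long the DOX_24h mice had been drinking doxycycline is not stated. Whether replicates came from separate animals is not stated, so the p-values below measure the spread between these samples.

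MYC is a transcription factor that binds DNA as a dimer with MAX at the E-box, and MAX also pairs with repressors of the MXD family and MNT. MYC is known for raising the synthesis of ribosomes, nucleotides and polyamines and for driving cells through the cell cycle. In this liver model loss of MYC is known for tumour regression, with some tumour cells taking on the look of mature hepatocytes and bile duct cells.

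The columns of the 2 groups differ in kind, and this touches every result below. In the Veh_24h columns 98.4 to 98.5% of low values were whole multiples of 1 read (within 0.02, up to 20 reads), which gave about 31900000 to 36700000 reads a library. In the DOX_24h columns 1.47% and 1.82% were, so their depth is unknown, and the same held for the 2 columns of RMC-4627_24h (1.18% and 1.10%). RMC-4627, an inhibitor of the growth kinase complex mTORC1 given at 10 mg/kg, is therefore set beside doxycycline as another treatment with columns of that kind, and it shares the vehicle libraries. Another 31 genes had at least 5 FPKM in all Veh_24h libraries and were listed at 0 in both DOX_24h libraries, and 19 of these were at 0 in both RMC-4627_24h libraries too. Among them, and chosen after the values were seen, is Cct2, a subunit of the chaperonin that folds actin and tubulin, with 248, 266 and 273 FPKM in the Veh_24h libraries. Such genes are not tested below, and treatment and kind of column cannot be told apart by this design.

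To lessen the effect of scale, the 8546 genes with an FPKM (fragments per kilobase of gene, scaled to the size of the library) of at least 1 in all 5 libraries were ranked within each library. Of 10077 genes that reached this level in both DOX_24h libraries 1531 were left out by it, and of 10330 genes that reached it in all Veh_24h libraries 1784 were. A difference below is the mean rank-matched log2 FPKM with doxycycline minus that with vehicle, given with its standard error (SE), and a gene changed if its adjusted p in limma was under 0.05. Over the tested genes Spearman's rho was 0.961 between the DOX_24h libraries, 0.953 to 0.968 among the Veh_24h libraries and 0.591 to 0.661 between the groups. The share of genes called is the background for all counts that follow: 5668 genes changed, or 66.3% of those tested, with 2867 higher (33.5%) and 2801 lower (32.8%) with doxycycline. On log2(FPKM + 1) as deposited, without ranking, the split was 2115 higher and 3625 lower around a median difference of −0.30, and with each library centred on its median it was 3170 and 2531. The median difference over all genes was 0.00. The ranks did not overlap between the groups for 39.7% of genes in the higher and 39% in the lower direction.

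The difference also moved with the make of a gene. In the 10% of genes with the shortest exon length (median 1195 bases) the median difference was −1.04 on the log2 scale, with 9.53% of genes higher and 58.6% lower, and in the 10% of longest genes (median 11605 bases) it was 1.04, with 65.3% higher and 7.52% lower. In the 10% of genes of lowest GC content (median 39.7%) the median difference was 1.05, and in the 10% of highest GC content (median 59.3%) it was −0.98. A second fit, added after the data were seen, therefore ranked each gene only against genes of like length and GC content, in 100 bins, and its values are called matched. Of 8509 genes with both measures, the matched fit called 4896 (57.5%), of which 2358 were higher (27.7%) and 2538 lower (29.8%). The fits called 1819 genes higher in common (21.4%) and 1891 lower in common (22.2%), and 141 (1.66%) in opposite directions. A gene that leads its bin in every library, such as Afp or Rps3, gets a matched difference of 0 whatever its level, so that value is no measure for it.

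**Figure D1:**
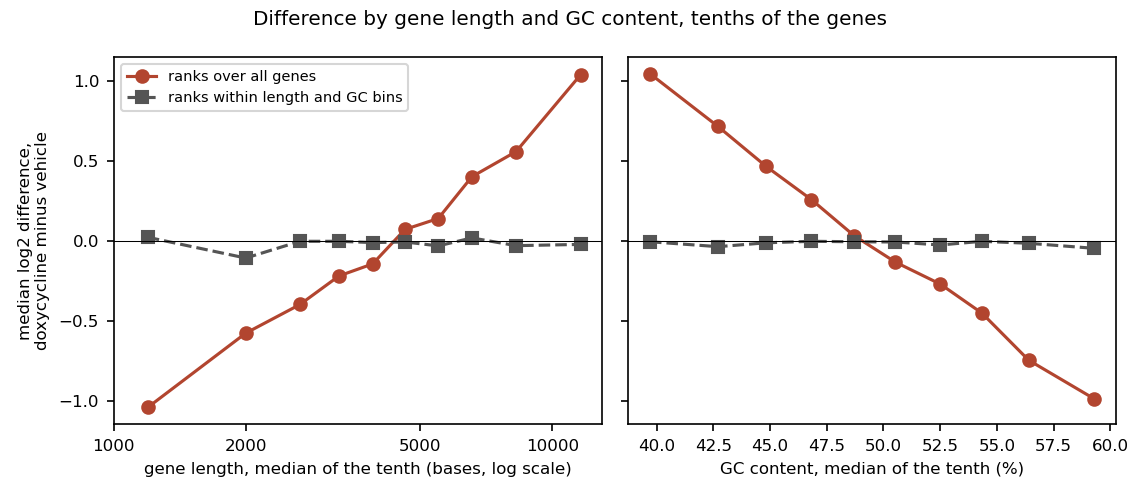
Median log2 difference (doxycycline minus vehicle) in 10 equal groups of genes by exon length (left, bases, log axis) and by GC content (right, percent). With ranks over all genes it runs from −1.04 to 1.04 over length and from 1.05 to −0.98 over GC content. Within length and GC bins it stays near 0, which ranking within those bins brings about by itself.

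The transgene is human, and the mouse Myc entry is no measure of it. Myc had 0.481 and 0.468 FPKM in the DOX_24h libraries, 0.440 and 3.62 FPKM in the RMC-4627_24h libraries, and 2.02, 1.73 and 1.14 FPKM in the Veh_24h libraries. Both DOX_24h values were under all Veh_24h values, but the entry missed the level for testing. The switch-off is thus taken from the labels.

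Among the proteins that pair with MAX, members moved both ways, in shares near the background. Of 14 genes of the MYC network 8 were tested, with 3 higher, 3 lower and 2 not called (median difference −0.14). That is 37.5% each way, near the 33.5% higher and 32.8% lower of all genes tested. In the matched fit 2 were higher and 2 lower, against 27.7% and 29.8% of all genes. Max had 5.04 and 3.92 FPKM in the DOX_24h libraries, against 24.4, 30.9 and 30.6 FPKM in the Veh_24h libraries. All Veh_24h libraries lay far above both DOX_24h libraries, and the difference was −2.23 ± 0.19 (SE; limma adjusted p = 8e-05; matched −2.02). Mxd4, a MAX partner that represses transcription, had 11.9 and 13.7 FPKM in the DOX_24h libraries, against 5.18, 4.96 and 4.13 FPKM in the Veh_24h libraries, without overlap (difference 1.91 ± 0.19, limma adjusted p = 0.000119; matched 1.45). Mxi1, another such repressor, fell instead (difference −1.41, limma adjusted p = 0.000344; matched −1.79). Mga, a large MAX partner, rose in both fits (2.18, matched 0.73), and Mnt was lower only over all genes (−0.75, matched −0.01 and not called). Mxd1 had 1.19 and 0.972 FPKM with doxycycline, against 0.882, 0.810 and 0.962 FPKM with vehicle, and was not tested.

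Genes that build ribosomes were lower with doxycycline. Of 36 ribosome biogenesis genes 35 were tested, of which 25 fell and 4 rose, with a median difference of −1.34, against 32.8% lower and a median of 0.00 over all genes. The count that rose was 2 without DOX_24h replicate 1, DOX_24h replicate 2 or Veh_24h replicate 3. In the matched fit 26 fell and 1 rose, with a median of −1.46, against 29.8% lower and −0.01 over all genes. Polr1b, a large subunit of RNA polymerase I, which transcribes ribosomal RNA, had 2.74 and 2.65 FPKM in the DOX_24h libraries, against 32.7, 35.9 and 32.3 FPKM in the Veh_24h libraries. The groups lay far apart, with a difference of −3.23 ± 0.18 (SE; limma adjusted p = 2.94e-05; matched −3.40). Nolc1, a nucleolar phosphoprotein, had 17.0 and 14.0 FPKM with doxycycline, against 130, 159 and 142 FPKM with vehicle, again without overlap (difference −3.11 ± 0.19, matched −3.21). Bop1, needed for maturing the large subunit, fell by 3.50 (matched −2.21) and Rcl1, a factor of small subunit processing, by 3.10 (matched −2.88).

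The exceptions in that list depended on the fit. Mrto4, an assembly factor of the large subunit, rose in both (difference 0.87 ± 0.20, limma adjusted p = 0.00681; matched 1.04), though it missed the threshold without DOX_24h replicate 1 (adjusted p = 0.0510). Nop58, a core protein of the particles that guide methylation of ribosomal RNA, rose over all genes (0.85) and fell in the matched fit (−1.21, limma adjusted p = 0.00439). Ncl, the nucleolar protein nucleolin and a textbook MYC target, had 382 FPKM in both DOX_24h libraries, against 253, 261 and 313 FPKM in the Veh_24h libraries. Its ranks overlapped between the groups, and the difference of 0.18 ± 0.22 was not called (limma adjusted p = 0.50). Ncl was called higher without ranking, with each library centred on its median (0.98, adjusted p = 0.0077), and lower with ranks within 20 bins of length (−1.30, adjusted p = 0.00094).

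To show the letters that MYC and MAX are known to bind, the E-box CACGTG was looked for in promoter windows from 250 bases before to 50 after each gene's start (RefSeq, build GRCm38.p6, 1 window a gene). The motif is its own reverse complement, so 1 search covers both strands. A window was found for 6735 of the 8546 tested genes. The motif stood in 7.24% of all 27025 windows and in 11.2% of those of tested genes. It stood in 12.3% of windows of genes lower in both fits (179 of 1452) and in 10.96% of those of genes higher in both (161 of 1469), both near the share among tested genes. It stood in 7 of 30 windows of the ribosome biogenesis list and in 6 of 26 of the nucleotide, polyamine and one-carbon list, but in 4 of 33 of the S phase list and 3 of 30 of the G2 and mitosis list. The control letters GACGTC, likewise their own reverse complement, stood in 5 of 30, 2 of 26, 5 of 33 and 2 of 30 of those windows and in 8.37% of those of tested genes. Among 29 genes of these 2 lists that were lower in both fits and had a window, Nop2 and Atic were found to hold it in the part before the start. Any gene on 1 of the chromosomes was left out of this step, so the 29 may not all have been searched. Those parts are given here with the E-box in capitals, 5′ to 3′ on the plus strand, for Nop2 from chr6:125131633-125131882 and for Atic from chr1:71556906-71557155. A match is a description of letters and shows no binding.
Nop2: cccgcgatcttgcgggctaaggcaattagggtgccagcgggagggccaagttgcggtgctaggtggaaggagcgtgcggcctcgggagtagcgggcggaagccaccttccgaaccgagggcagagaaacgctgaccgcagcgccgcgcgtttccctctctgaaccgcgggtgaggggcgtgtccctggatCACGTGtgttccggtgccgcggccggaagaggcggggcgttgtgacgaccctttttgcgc
Atic: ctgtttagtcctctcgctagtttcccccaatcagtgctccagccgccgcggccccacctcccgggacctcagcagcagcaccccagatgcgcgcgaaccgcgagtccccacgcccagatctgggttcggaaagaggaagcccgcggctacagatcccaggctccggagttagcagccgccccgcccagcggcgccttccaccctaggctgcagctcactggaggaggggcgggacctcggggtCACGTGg

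The E-box begins 60 bases before the start in Nop2 and 7 bases before it in Atic. Nop2, a methyltransferase of ribosomal RNA, had 16.9 and 18.1 FPKM in the DOX_24h libraries, against 88.2, 118 and 113 FPKM in the Veh_24h libraries. Both DOX_24h values were far under every Veh_24h value (difference −2.47 ± 0.18, limma adjusted p = 4.39e-05; matched −2.14). Atic, which makes the last steps of purine synthesis, had 27.4 and 19.4 FPKM with doxycycline, against 45.4, 44.0 and 44.8 FPKM with vehicle. It too did not overlap, but its difference was smaller (−0.73 ± 0.22, limma adjusted p = 0.0194; matched −0.95) and missed the threshold without DOX_24h replicate 2 (adjusted p = 0.135). Nop2 and Atic were chosen for their sequence after the values were seen.

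Enzymes that make nucleotides, polyamines and one-carbon units were mostly lower. Of 30 tested genes 16 fell and 8 rose over all genes (median difference −0.82), and 22 fell and 3 rose in the matched fit (median −1.07). Srm, spermidine synthase of the polyamine pathway, had 14.3 and 19.9 FPKM in the DOX_24h libraries, against 422, 762 and 646 FPKM in the Veh_24h libraries. The groups were far apart, and the difference was −5.06 ± 0.24 (SE; limma adjusted p = 2.65e-05; matched −3.40). Odc1, the rate-limiting enzyme of the same pathway and a classic MYC target, had 36.5 and 21.8 FPKM with doxycycline, against 156, 131 and 99.9 FPKM with vehicle. It fell without overlap (−2.14 ± 0.32, limma adjusted p = 0.000866; matched −2.21). Shmt2 and Mthfd2, which run the one-carbon cycle in mitochondria, fell by 3.89 and 3.04 (matched −3.28 and −2.66). Cad, which starts pyrimidine synthesis, fell by 1.49 (matched −1.35), and Impdh1, of guanine nucleotide synthesis, fell by 2.97 (matched −1.85).

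Thymidine enzymes went the other way. Tk1, thymidine kinase, had 95.0 and 102 FPKM in the DOX_24h libraries, against 19.2, 28.4 and 29.0 FPKM in the Veh_24h libraries, and rose without overlap (2.02 ± 0.22, limma adjusted p = 0.000172; matched 1.91). In the RMC-4627_24h libraries Tk1 had 13.3 and 32.0 FPKM. Tyms, thymidylate synthase, had 31.0 and 44.3 FPKM with doxycycline, against 11.6, 12.7 and 15.1 FPKM with vehicle (1.78 ± 0.22, matched 1.34). Both are genes of dividing cells.

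Genes of DNA replication and mitosis were lower with doxycycline as a group. Of 45 genes of S phase 40 were tested, of which 25 fell and 6 rose (median difference −1.14). Of 40 genes of G2 and mitosis 36 were tested, of which 25 fell and 4 rose (median −1.22). In the matched fit 23 fell and 3 rose (median −0.97) in S phase, and 30 fell and 1 rose (median −1.39) in G2 and mitosis. The median percentile rank of the mitotic genes was 40.2 and 42.9 in the DOX_24h libraries, 34.3 and 45.9 in the RMC-4627_24h libraries, and 74.4, 68.4 and 70.8 in the Veh_24h libraries. All Veh_24h libraries thus ranked these genes higher than the 4 libraries of the other kind of column.

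Mki67, the source of the Ki-67 proliferation mark, had 2.24 and 2.99 FPKM in the DOX_24h libraries, against 23.9, 20.02 and 24.9 FPKM in the Veh_24h libraries. The groups were far apart (−2.69 ± 0.23, limma adjusted p = 7.06e-05; matched −3.79). Mcm6, of the replicative helicase, had 7.05 and 6.97 FPKM with doxycycline, against 73.7, 69.0 and 62.8 FPKM with vehicle (−3.05 ± 0.22, matched −3.54). Aurka, a kinase of the mitotic spindle, had 5.37 and 5.40 FPKM with doxycycline, against 43.8, 52.2 and 42.6 FPKM with vehicle (−2.75 ± 0.19, matched −2.63). In each of these genes the lowest Veh_24h library had several times the FPKM of the highest DOX_24h library. Cdt1, which licenses replication origins, fell by 2.72 (matched −1.49), Pold2, of DNA polymerase delta, by 3.35 (matched −2.29), and Uhrf1, which keeps DNA methylation, by 2.80 (matched −2.16). Ccnb2, a mitotic cyclin, fell by 2.76 (matched −1.48), Incenp, of the chromosomal passenger complex, by 2.55 (matched −2.15), and Cdca3, a mitotic entry factor, by 3.38 (matched −2.99).

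A few members rose in both fits. Ect2, which drives the cleavage furrow, had 66.1 and 60.8 FPKM in the DOX_24h libraries, against 16.1, 9.13 and 13.1 FPKM in the Veh_24h libraries (2.48 ± 0.28, matched 1.07). Ccne2, a cyclin of the entry into S phase, had 15.4 and 16.0 FPKM with doxycycline, against 6, 3.12 and 4.79 FPKM with vehicle (2.26 ± 0.26, matched 1.64). Slbp, which binds histone messages, rose by 1.80 (matched 0.77). Mad2l1, of the spindle checkpoint, rose over all genes only (1.26, matched −0.54 and not called). For these 4 genes the DOX_24h libraries did not overlap the Veh_24h libraries in rank.

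**Figure D2:**
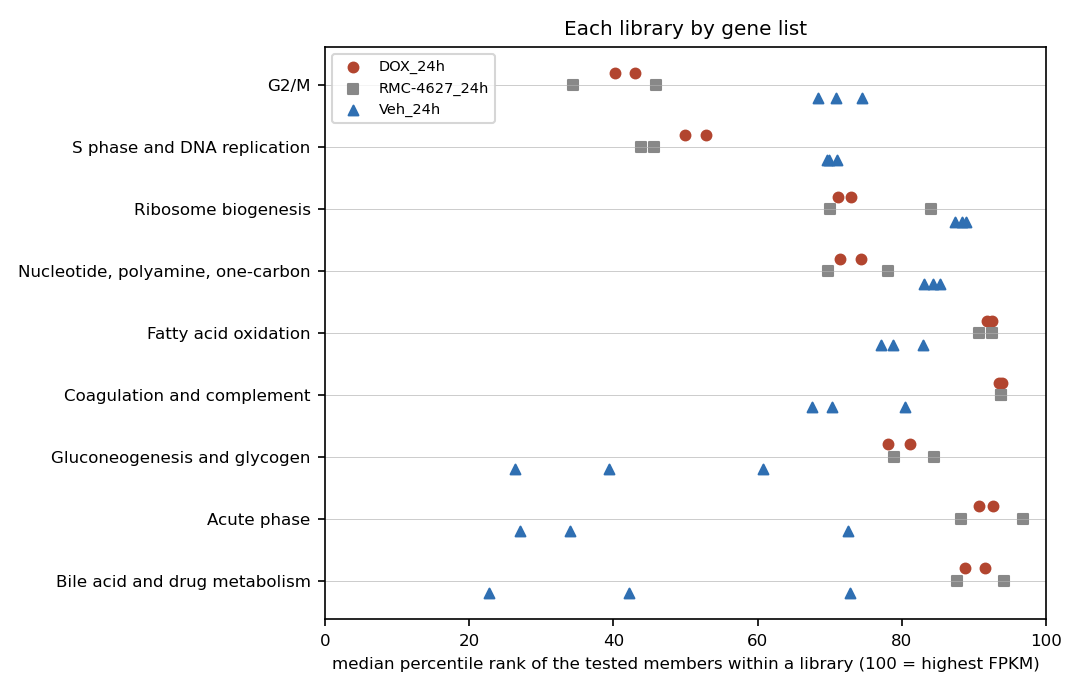
Median percentile rank (percent, 100 the highest FPKM) of the tested members of 9 gene lists in each library of DOX_24h, RMC-4627_24h and Veh_24h, 1 point a library. The mitotic genes sit at 40.2 and 42.9 with doxycycline against 68.4 to 74.4 with vehicle, and the bile acid and drug genes at 91.6 and 88.8 against 22.8 to 72.8.

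Of the cell cycle inhibitors and p53 targets 22 were tested, of which 4 rose (18.2%) and 7 fell (31.8%; median difference −0.34; matched 3 and 5, median 0.02). Among all genes tested 33.5% rose and 32.8% fell, so the share that fell was near the background. On log2(FPKM + 1) as deposited 1 rose and 13 fell. Cdkn1a, the inhibitor p21, had 21.1 and 23.8 FPKM in the DOX_24h libraries, against 36.0, 45.3 and 28.8 FPKM in the Veh_24h libraries. Its ranks overlapped and it was not called (−0.41 ± 0.25, limma adjusted p = 0.177). Cdkn1a was called lower on log2(FPKM + 1) without ranking (−0.67, adjusted p = 0.0334), and without Veh_24h replicate 3 (−0.64, adjusted p = 0.0482). Trp53, the p53 gene, fell by 2.16 (matched −1.28) and Cdkn1c, an imprinted inhibitor of growth, by 3.75 (matched −2.12).

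The counts for factors of protein synthesis differed between the fits. Of 36 tested translation factors 10 rose and 13 fell (median difference −0.09), shares near the background, while the matched fit had 3 higher and 17 lower (median −0.58). Eif5a, the factor that carries the spermidine-derived amino acid hypusine, had 109 and 73.3 FPKM in the DOX_24h libraries, against 716, 1014 and 849 FPKM in the Veh_24h libraries. It fell without overlap in both fits (−3.56 ± 0.23, limma adjusted p = 3.76e-05; matched −3.16). Eif4ebp1, the repressor of cap-dependent translation held off by mTORC1, had 18.1 and 24.6 FPKM with doxycycline, against 51.8, 113 and 75.3 FPKM with vehicle (−1.71 ± 0.30, limma adjusted p = 0.00168; matched −1.71). Mtor, the kinase itself, had 8 and 13.6 FPKM with doxycycline, against 5.72, 5.05 and 5.03 FPKM with vehicle, and rose (1.49 ± 0.24, limma adjusted p = 0.00126; matched 1.03), but Mtor was not called with ranks within 20 bins of length (0.42, adjusted p = 0.132). Eif4a2, a helicase that opens messages, and Eif3e, of the initiation factor complex eIF3, rose by 2.52 and 2.47, and by 0.85 and 0.54 in the matched fit.

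Ribosomal proteins of the cytosol moved in both directions, and those of mitochondria were more often lower than the 32.8% of all genes. Of 74 tested cytosolic ones 17 rose and 30 fell (median difference −0.45; matched 13 and 23, median −0.12). Rpl5 had 4867 and 6088 FPKM in the DOX_24h libraries, 5454 and 143 FPKM in the RMC-4627_24h libraries, and 278, 344 and 321 FPKM in the Veh_24h libraries. Rpl23a had 58.1 and 49.4 FPKM in the DOX_24h libraries, 36.0 and 122 FPKM in the RMC-4627_24h libraries, and 582, 597 and 851 FPKM in the Veh_24h libraries. Subunits of 1 particle thus lay on opposite sides, at 3.42 for Rpl5 and −3.83 for Rpl23a, and the 2 RMC-4627_24h libraries lay on either side of the vehicle values for Rpl5. Many such genes have near-identical processed copies, so their values are uncertain. Of 55 mitochondrial ribosomal proteins 10 rose and 30 fell (median −0.64; matched 8 and 23, median −0.38), with Mrpl34 at −4.29 (matched −3.14) and Mrpl3 at 2.42 (matched 1.17).

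Splicing factors fell more often than all genes in both fits, and chaperones did so in the matched fit only. Of 30 splicing genes 7 rose and 14 fell (46.7%, against 32.8% of all genes; median difference −0.44). When matched 1 rose and 15 fell (median −0.76), against 29.8% lower of all genes. U2af1, which reads the end of introns, had 8.95 and 8.72 FPKM in the DOX_24h libraries, against 207, 297 and 294 FPKM in the Veh_24h libraries (−4.71 ± 0.18, matched −4.18). Srsf3, a splicing activator, rose over all genes (1.16) and fell when matched (−0.90, limma adjusted p = 0.00937). Of 20 chaperones 7 rose (35%) and 6 fell (30%; median −0.10), and 3 rose and 10 fell when matched (median −0.68). Hsp90ab1, a constitutive HSP90, fell by 2.48 (matched −1.62) and Stip1, its partner, by 2.25 (matched −2.01). Dnaja1, a partner of HSP70, rose by 2.93 (matched 0.75).

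Energy genes moved in both directions. With ranks over all genes, neither glycolysis nor oxidative phosphorylation exceeded the 33.5% higher and 32.8% lower of all genes tested. Ldha, lactate dehydrogenase and a known MYC target, had 262 and 194 FPKM in the DOX_24h libraries, against 699, 1052 and 694 FPKM in the Veh_24h libraries, without overlap (−2.21 ± 0.27, limma adjusted p = 0.000305; matched −1.69). Of 16 glycolysis genes, however, 2 rose (12.5%) and 5 fell (31.25%; median difference −0.38; matched 2 and 4 of 15, median −0.24). The count that fell was 3 without Veh_24h replicate 1 or 2. Pdk1, which holds pyruvate out of the mitochondrial cycle, rose by 1.82 (matched 0.92). Of 48 genes of oxidative phosphorylation 13 rose (27.1%) and 14 fell (29.2%; median −0.15), and 16 rose and 10 fell of 47 when matched (median 0.18). Ndufa4, a subunit of the respiratory chain, rose by 2.12 (matched 2.75) while Atp5a1, of ATP synthase, fell by 2.90 (matched −2.79). In the RMC-4627_24h libraries Atp5a1 had 1416 and 9.06 FPKM, on either side of the vehicle values of 506, 609 and 501 FPKM. The proteasome had 13 higher and 9 lower of 34 (median 0.16; matched 11 and 10, median 0.04).

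Genes of the mature liver were higher with doxycycline. They covered proteins that hepatocytes secrete into blood, enzymes that handle bile acids and foreign compounds, and enzymes that burn fat or make glucose. Of 36 tested plasma proteins (38 listed) 23 rose and 4 fell (median difference 1.71), and of 26 tested coagulation and complement genes (34 listed) 18 rose and 1 fell (median 1.85). In the matched fit these were 18 and 3 (median 1.57) and 13 and 0 (median 1.45). Of 28 tested genes of fatty acid oxidation (34 listed) 20 rose and 2 fell (median 1.71; matched 20 and 1, median 1.41). Of 13 tested genes of glucose and glycogen handling (15 listed) 11 rose and 1 fell (median 2.44; matched 10 and 2, median 1.89).

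Markers of hepatocytes were higher in sum in the same libraries, and Apob stands both in this list and in that of plasma proteins. Of the 10 marker genes all had an FPKM of at least 1 in both DOX_24h libraries and 9 did in all Veh_24h libraries. Their summed FPKM was 41234 and 48226 in the DOX_24h libraries, 41349 and 28031 in the RMC-4627_24h libraries, and 5963, 4133 and 3204 in the Veh_24h libraries. Of 9 tested markers 5 rose over all genes (55.6%, against 33.5% of all genes tested) and none fell. In the matched fit 2 of the 9 rose, against 27.7% of all genes, and none fell. In such bulk tissue a change in the number of cells of a type and a change in RNA per cell cannot be told apart. The part of the tumours' makeup in these differences was not tested.

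Alb, serum albumin, had 23943 and 30690 FPKM in the DOX_24h libraries, 23446 and 21566 FPKM in the RMC-4627_24h libraries, and 2849, 1425 and 732 FPKM in the Veh_24h libraries. All 4 libraries of the other kind of column were above all Veh_24h libraries, and with doxycycline the difference was 3.96 ± 0.67 (SE; limma adjusted p = 0.00142), but it was not called in the matched fit (1.79, adjusted p = 0.168). Itih3, a plasma protein that binds hyaluronan, had 405 and 398 FPKM with doxycycline, against 39.4, 34.5 and 54.6 FPKM with vehicle (3.12 ± 0.27, matched 2.36). Serpind1, heparin cofactor II, had 275 and 236 FPKM with doxycycline, against 31.1, 19.5 and 11.9 FPKM with vehicle (3.65 ± 0.43, matched 3.57). Both were without overlap in rank and passed in both fits. Apob, the body of lipoproteins, rose by 3.71 (matched 1.25), and Kng1, kininogen, by 2.60 (matched 1.14, not called).

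The exceptions were large. Gc, the vitamin D carrier, had 150 FPKM in each DOX_24h library, 43.3 and 4094 FPKM in the RMC-4627_24h libraries, and 1079, 752 and 847 FPKM in the Veh_24h libraries (−3.0 ± 0.35, limma adjusted p = 0.000249; matched −2.80). Serpina6, the carrier of corticosteroids, had 10.6 and 10.1 FPKM with doxycycline, against 63.7, 105 and 228 FPKM with vehicle (−3.27 ± 0.45, matched −3.03). Both fell in both fits while neighbours in the list rose.

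Among clotting and complement genes, Klkb1, the precursor of plasma kallikrein, had 48.8 and 55.9 FPKM in the DOX_24h libraries, against 5.35, 2.75 and 3.64 FPKM in the Veh_24h libraries (3.98 ± 0.26, limma adjusted p = 3.75e-05; matched 3.05). It rose without overlap. Fgb, a fibrinogen chain, rose by 3.51 and F2, prothrombin, by 2.91 over all genes, and neither was called in the matched fit (0.35 and 1.34). F7, a clotting factor, was the 1 gene lower over all genes (−0.82), and its matched difference was 0.19 and not called.

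Acute phase genes, which hepatocytes switch on in inflammation, were higher. Of 23 genes 17 were tested, of which 15 rose and none fell over all genes (median difference 2.47), and 13 rose and none fell in the matched fit (median 2.77). Saa3, a serum amyloid, had 92.0 and 54.6 FPKM in the DOX_24h libraries, 11.9 and 12.5 FPKM in the RMC-4627_24h libraries, and 1.21, 1.68 and 1.79 FPKM in the Veh_24h libraries. It rose without overlap (5.55 ± 0.29, limma adjusted p = 2.86e-05; matched 5.38). Orm1, orosomucoid, had 943 and 945 FPKM with doxycycline, against 72.0, 10.5 and 2.67 FPKM with vehicle, a wide spread among vehicle libraries (5.96 ± 1.25, limma adjusted p = 0.00420; matched 6.38). Crp, C-reactive protein, rose by 3.52 (matched 2.52), Cp, the copper carrier ceruloplasmin, by 5.95 (matched 4.12) and Il6ra, the receptor of interleukin 6, by 2.05 (matched 1.86).

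Markers of neutrophils, which also answer inflammation, moved beside this list. Their summed FPKM over 11 genes was 160 and 113 in the DOX_24h libraries, 68.7 and 81.1 in the RMC-4627_24h libraries, and 3.90, 2.25 and 2.74 in the Veh_24h libraries. S100a8 (88.4 and 47.0 FPKM) and S100a9 (56.1 and 49.0 FPKM) made up most of the sum in the DOX_24h libraries. No member reached the level for testing in all 5 libraries, and Ly6g and Mpo were at 0 in all Veh_24h libraries. Ltf lay the other way, at 0.000631 and 0.000682 FPKM in the DOX_24h libraries, against 0.534, 0.420 and 1.10 FPKM in the Veh_24h libraries. The part of neutrophils in the acute phase result was not tested.

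Enzymes and carriers of bile acid and drug metabolism were higher in those members that could be tested. Of 44 genes 24 were tested, of which 18 rose and 1 fell (median difference 3.15; matched 14 and 1, median 2.94). Another 18 reached an FPKM of 1 in both DOX_24h libraries but not in all Veh_24h libraries and stayed out. Without DOX_24h replicate 1 the count that rose was 11. Gsta3, a glutathione transferase, had 262 and 240 FPKM in the DOX_24h libraries, against 22.2, 9.53 and 16.0 FPKM in the Veh_24h libraries (4.01 ± 0.37, limma adjusted p = 9.88e-05; matched 2.73). Baat, which joins bile acids to amino acids, had 39.5 and 38.6 FPKM with doxycycline, against 8.39, 3.15 and 1.29 FPKM with vehicle (3.79 ± 0.61, matched 3.83). Neither overlapped. Fmo5, a monooxygenase, rose by 3.54 (matched 2.43), and Abcc2, which exports bilirubin conjugates, by 2.20 (matched 1.14, not called). Gstp1, a glutathione transferase, fell by 1.14 (matched −2.05), though it missed the threshold without ranking (−0.73 on log2(FPKM + 1), adjusted p = 0.0694).

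For the bile acid and drug list, and likewise for the acute phase list, the median rank ranged less widely over the 2 DOX_24h libraries than over the 3 Veh_24h libraries. The median percentile rank of the bile acid and drug genes was 91.6 and 88.8 in the DOX_24h libraries, against 72.8, 42.2 and 22.8 in the Veh_24h libraries. That of the acute phase genes was 92.6 and 90.7 in the DOX_24h libraries, against 72.6, 34.0 and 27.0 in the Veh_24h libraries. Veh_24h replicate 1 was nearest to doxycycline in both.

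Fat burning and glucose making were higher in both fits. Decr1, of the breakdown of unsaturated fat, had 83.9 and 88.3 FPKM in the DOX_24h libraries, 400 and 3.64 FPKM in the RMC-4627_24h libraries, and 15.0, 18.1 and 12.6 FPKM in the Veh_24h libraries (2.64 ± 0.21, limma adjusted p = 5.82e-05; matched 2.24). Acadm, a dehydrogenase of medium-chain fat, had 579 and 573 FPKM with doxycycline, against 78.8, 76.3 and 78.8 FPKM with vehicle (2.59 ± 0.21, matched 1.46). The groups did not overlap in either. Eci2, an isomerase of the same path, rose by 2.92 (matched 2.51), while its relative Eci1 fell by 1.36 (matched −1.08). Acaa2, which makes the last cut of the path, fell over all genes only (−0.94, matched 0.16 and not called) and missed the threshold without DOX_24h replicate 2 (adjusted p = 0.0698).

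Muscle and brown fat also burn fat, and their genes were higher in the same libraries. The skeletal muscle markers summed to 1701 and 1342 FPKM in the DOX_24h libraries, 2348 and 1094 FPKM in the RMC-4627_24h libraries, and 5.30, 5.22 and 6.91 FPKM in the Veh_24h libraries. Ucp1, the heat-making protein of brown fat, had 20.1 and 45.4 FPKM in the DOX_24h libraries, 216 and 1.02 FPKM in the RMC-4627_24h libraries, and 0 in all Veh_24h libraries. Myh6, of heart muscle, had 321 and 171 FPKM in the DOX_24h libraries, 167 and 732 FPKM in the RMC-4627_24h libraries, and 0 in all Veh_24h libraries. Their part in the result for fat burning was not tested.

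Slc2a2, the glucose carrier of hepatocytes, had 100.4 and 99.3 FPKM in the DOX_24h libraries, against 14.4, 8.49 and 12.2 FPKM in the Veh_24h libraries (3.20 ± 0.26, limma adjusted p = 6.21e-05; matched 2.0). Gys2, liver glycogen synthase, had 24.9 and 26.2 FPKM with doxycycline, against 6.11, 3.64 and 3.50 FPKM with vehicle (2.94 ± 0.25, matched 3.04). Both rose without overlap, as did Gbe1, which branches glycogen (3.18, matched 2.35), and Khk, which takes up fructose (2.14, matched 3.03). Slc37a4, which carries glucose 6-phosphate to the enzyme that frees glucose, had 3.57 and 1.33 FPKM with doxycycline, 1.01 and 23.9 FPKM with RMC-4627, and 48.3, 50.9 and 54.1 FPKM with vehicle. It fell in both fits (−4.30 ± 0.42, matched −3.52).

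Nitrogen disposal was higher in part. Of 31 genes of the urea cycle and amino acid breakdown 14 rose and 5 fell (median difference 0.53; matched 15 and 3, median 0.70). The count that fell was 3 without DOX_24h replicate 2 or Veh_24h replicate 3. Otc, of the urea cycle, had 117 and 127 FPKM in the DOX_24h libraries, against 9.45, 3.40 and 5.42 FPKM in the Veh_24h libraries, without overlap (4.47 ± 0.38, limma adjusted p = 7.47e-05; matched 3.93). Gnmt, which uses up methyl groups, rose by 2.66 (matched 4.06), Hal, which breaks down histidine, by 3.17 (matched 2.81), and Kynu, of tryptophan breakdown, by 2.18 (matched 0.95). Oat, ornithine aminotransferase, fell by 1.88 (matched −2.13).

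The transcription factors of hepatocytes did not follow. Of 21 listed 13 were tested, of which 1 rose and 4 fell (median difference −0.59; matched 2 and 3, median −0.02). Hnf4a, a master regulator of liver genes, had 78.0 and 115 FPKM in the DOX_24h libraries, against 91.3, 74.3 and 83.7 FPKM in the Veh_24h libraries. Its ranks overlapped, with a difference of 0.01 and a 95% interval from −0.63 to 0.65 (limma adjusted p = 0.981), although Hnf4a was called higher without ranking, with each library centred on its median (0.70, adjusted p = 0.0349). Foxa2, a pioneer factor, fell (−2.25, matched −1.43), and Nr2f2, an orphan nuclear receptor, rose (2.14, matched 1.39).

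**Figure D3:**
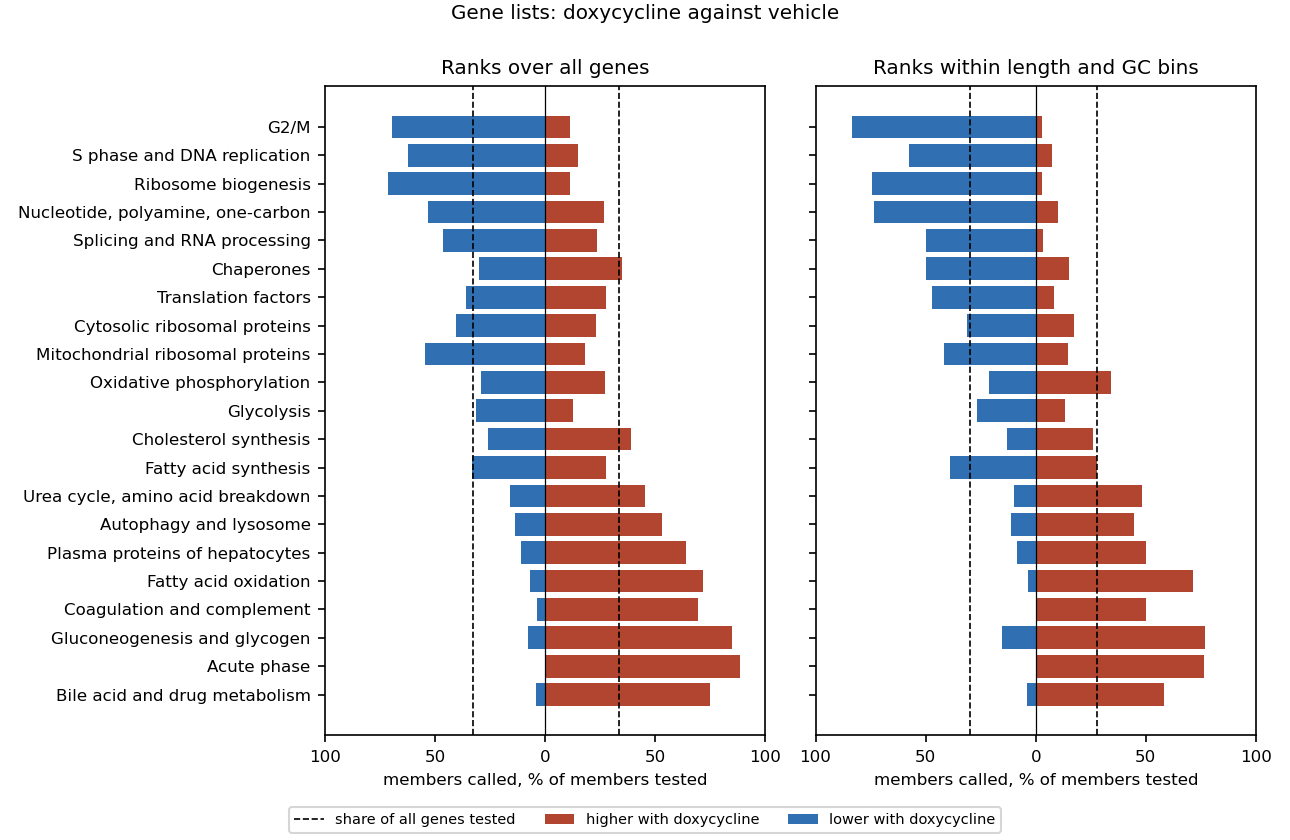
Members called higher (right) and lower (left) with doxycycline than with vehicle, as percent of the members tested, for 21 gene lists, with ranks over all genes (left panel) and within length and GC bins (right panel). Dashed lines mark the share among all genes tested, 33.5% higher and 32.8% lower on the left and 27.7% and 29.8% on the right. Proliferation and ribosome biogenesis lists extend left of their line and lists of mature liver genes right of theirs in both panels.

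Genes of the fetal liver moved in different ways. Of 19 listed 10 were tested, of which 1 rose and 5 fell (median difference −1.14; matched 1 and 4, median −0.76). H19, an imprinted long RNA of fetal liver, had 1390 and 1568 FPKM in the DOX_24h libraries, against 3587, 5728 and 6433 FPKM in the Veh_24h libraries (−2.60 ± 0.25, limma adjusted p = 0.000116; matched −2.52). Afp, alpha-fetoprotein and a marker of liver tumours, had 2511 and 4540 FPKM with doxycycline, 10918 and 1776 FPKM with RMC-4627, and 1291, 1869 and 1075 FPKM with vehicle. H19 was lower in both DOX_24h libraries than in any Veh_24h library. The ranks of Afp overlapped (0.15 ± 0.36, limma adjusted p = 0.726), although without ranking its FPKM was called higher (1.3 on log2(FPKM + 1), adjusted p = 0.0223). Igf2, a fetal growth factor, fell by 2.03 (matched −1.28, not called), and Peg3, another imprinted gene, rose by 3.49 (matched 2.60).

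Lysosome and autophagy genes were higher than the background. Of 36 tested 19 rose and 5 fell (median difference 0.76; matched 16 and 4, median 0.50). The count that fell was 2 without DOX_24h replicate 1 or Veh_24h replicate 2, and 3 without Veh_24h replicate 3. Ctsh, a lysosomal protease, had 60.3 and 59.8 FPKM in the DOX_24h libraries, against 11.2, 10.6 and 8.41 FPKM in the Veh_24h libraries (2.74 ± 0.20, limma adjusted p = 4.45e-05; matched 2.82). Gabarapl2, which coats autophagosomes, had 72.0 and 50.9 FPKM with doxycycline, against 11, 12.9 and 12.2 FPKM with vehicle (2.5 ± 0.21, matched 2.53). Both were far above all Veh_24h libraries.

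Lipid synthesis lists moved in both directions, and the ATF4 list was more often lower than the 32.8% of all genes. Of 23 cholesterol genes 9 rose and 6 fell (median difference 0.38; matched 6 and 3, median −0.07). Srebf2, a transcription factor that drives the genes of cholesterol synthesis, fell by 1.99 (matched −1.58). Of 18 genes of fatty acid synthesis 5 rose and 6 fell (median 0.12; matched 5 and 7, median −0.24). Among 22 targets of the stress factor ATF4 and genes of amino acid supply 6 rose and 12 fell (median −0.55; matched 4 and 10 of 21, median −0.53). Slc7a5, an importer of leucine, had 11.3 and 10.2 FPKM in the DOX_24h libraries, against 56.8, 61.5 and 53.5 FPKM in the Veh_24h libraries (−2.15 ± 0.19, matched −1.44). Of 22 genes of the unfolded protein response 10 rose and 4 fell (median 0.46; matched 6 and 4, median −0.01).

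The shares called differed between MHC class I and interferon genes. Of 18 MHC class I genes 8 rose (44.4%) and 2 fell (11.1%), against 33.5% and 32.8% of all genes tested (median difference 0.66; matched 10 and 2, median 0.85). The count that rose was 5 without DOX_24h replicate 1 and 3 without DOX_24h replicate 2. H2-K1, a class I heavy chain, had 385 and 457 FPKM in the DOX_24h libraries, against 74.4, 68.6 and 43.3 FPKM in the Veh_24h libraries (2.61 ± 0.35, limma adjusted p = 0.000483; matched 2.88). Of 17 interferon response genes 1 rose (5.88%) and 5 fell (29.4%; median −0.24; matched 0 and 3, median 0.18). The share of interferon genes that fell was thus near that of all genes, and the share that rose was under it. The count that fell was 9 without Veh_24h replicate 3, and 3 without DOX_24h replicate 2, Veh_24h replicate 1 or Veh_24h replicate 2. Cxcl10, a chemokine that draws T cells, had 2.22 and 1.62 FPKM with doxycycline, against 15.0, 31.2 and 20.2 FPKM with vehicle (−3.03 ± 0.32, matched −2.85). H2-K1 and Cxcl10, both inducible by interferon, thus passed in opposite directions. Class II genes had 1 higher and 1 lower of 5 tested. Cd274, the checkpoint ligand PD-L1, had 1.66 and 2.23 FPKM with doxycycline, against 1.68, 2.58 and 0.504 FPKM with vehicle, and was not tested.

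Markers of other cell types were compared to show what the tissue held. The macrophage list of 19 genes summed to 3076 and 4232 FPKM in the DOX_24h libraries, 2590 and 269 FPKM in the RMC-4627_24h libraries, and 577, 788 and 574 FPKM in the Veh_24h libraries. Lyz2, a lysozyme of macrophages, made up most of it, with 2771 and 3878 FPKM in the DOX_24h libraries, against 204, 275 and 266 FPKM in the Veh_24h libraries (2.97 ± 0.20, matched 3.06). Mrc1 and Msr1, macrophage receptors, also rose (3.24 and 2.94, matched 2.42 and 1.72), while Cd68, another macrophage marker, fell by 2.17 (matched −0.98). Of 10 tested members 4 rose and 3 fell over all genes, and 7 rose and 1 fell when matched. The stellate cell and fibroblast list summed to 841 and 662 FPKM in the DOX_24h libraries, against 69.5, 65.7 and 149 FPKM in the Veh_24h libraries. Of its 10 tested members 6 rose and none fell (matched 4 and 0), and most of that sum was Des, which the skeletal muscle list holds too, at 525 and 343 FPKM in the DOX_24h libraries, against 1.19, 1.37 and 0.558 FPKM in the Veh_24h libraries. Acta2, the smooth muscle actin of activated stellate cells, lay the other way, with 0.0223 and 0.0627 FPKM in the DOX_24h libraries, 0 and 0.00887 FPKM in the RMC-4627_24h libraries, and 7.80, 11.49 and 6.01 FPKM in the Veh_24h libraries. It missed the level for testing and was chosen after its values were seen.

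**Figure D4:**
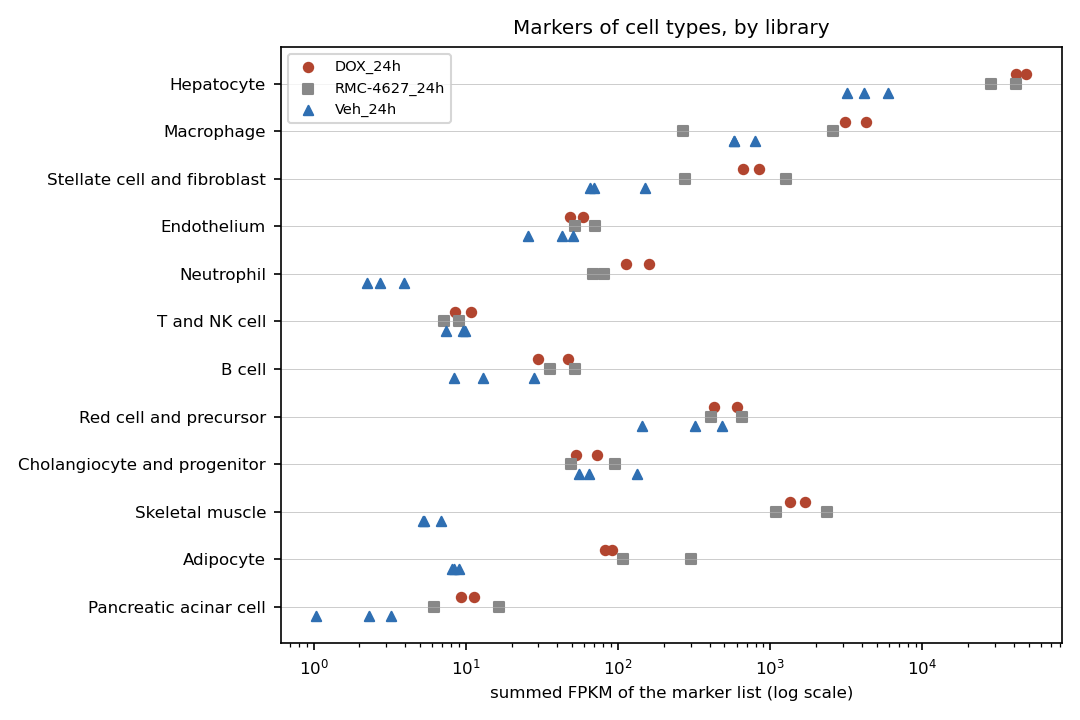
Summed FPKM (log axis) of 12 lists of cell type markers, 1 point a library, for DOX_24h, RMC-4627_24h and Veh_24h. Skeletal muscle markers sum to 1701 and 1342 FPKM with doxycycline against 5.22 to 6.91 FPKM with vehicle, and the RMC-4627_24h libraries lie beside doxycycline for that list.

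The endothelial list summed to 48.2 and 59.1 FPKM in the DOX_24h libraries, against 50.6, 42.8 and 25.6 FPKM in the Veh_24h libraries, which overlap. Of its 7 tested members 2 rose and none fell (matched 4 and 0), Kdr, a receptor of vascular growth factor, by 3.33 and the adhesion protein Pecam1 by 1.93. The bile duct and progenitor list summed to 72.2 and 53.2 FPKM in the DOX_24h libraries, against 64.1, 55.2 and 134 FPKM in the Veh_24h libraries, and the T and NK cell list to 10.9 and 8.50 FPKM in the DOX_24h libraries, against 9.58, 9.92 and 7.44 FPKM in the Veh_24h libraries. Neither set of sums separated the groups. The B cell list summed to 46.8 and 29.9 FPKM in the DOX_24h libraries, against 12.9, 8.31 and 28.2 FPKM in the Veh_24h libraries, and the red cell list to 607 and 430 FPKM in the DOX_24h libraries, against 321, 483 and 144 FPKM in the Veh_24h libraries. The adipocyte list summed to 81.8 and 91.9 FPKM in the DOX_24h libraries, against 9.06, 8.34 and 8.07 FPKM in the Veh_24h libraries, and the pancreatic list to 9.32 and 11.4 FPKM in the DOX_24h libraries, against 3.20, 2.31 and 1.04 FPKM in the Veh_24h libraries. The pancreatic sum was nearly all Cela1, with 9.23 and 10.6 FPKM in the DOX_24h libraries, against 3.03, 2.23 and 1.04 FPKM in the Veh_24h libraries. Of the 10 pancreatic genes 7 were at 0 in both DOX_24h libraries and 6 in all Veh_24h libraries.

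The skeletal muscle list summed to 1701 and 1342 FPKM in the DOX_24h libraries, 2348 and 1094 FPKM in the RMC-4627_24h libraries, and 5.30, 5.22 and 6.91 FPKM in the Veh_24h libraries. Of its 17 genes 1 was tested, and the rest are not read as a result of doxycycline.

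The largest rise was that of Bhmt, which remakes methionine from betaine in hepatocytes, with 1822 and 2036 FPKM in the DOX_24h libraries, against 37.5, 10.2 and 4.61 FPKM in the Veh_24h libraries (6.87 ± 0.83, limma adjusted p = 0.000287; matched 4.21). Cyp3a11, a drug-oxidising cytochrome, followed with 1507 and 1243 FPKM with doxycycline, against 53.2, 11 and 1.98 FPKM with vehicle (6.68 ± 1.22, limma adjusted p = 0.00210), but was not called when matched (4.50, adjusted p = 0.0596). Igf1, the growth factor that liver sends into blood, had 223 and 236 FPKM with doxycycline, against 7.31, 3.27 and 2.81 FPKM with vehicle (5.81 ± 0.37, matched 3.01). None of the 3 overlapped between the groups, which was a condition for a place among the largest rises and falls. Lpl, the lipase of blood lipoproteins, which adult liver holds little of, had 323 and 279 FPKM with doxycycline, against 3.54, 5.47 and 2.94 FPKM with vehicle (6.31 ± 0.28, matched 3.88). Tpm2, a tropomyosin of muscle, had 74.9 and 67.8 FPKM with doxycycline, 102 and 52.4 FPKM with RMC-4627, and 1.04, 1.35 and 1.89 FPKM with vehicle (5.66 ± 0.26, matched 6.02). Muscle and fat markers, given above, were higher in the same libraries, and their part in the values of Lpl and Tpm2 was not tested. Orm1, Cp, Ces1c, a carboxylesterase (5.76), Chpt1, which makes phosphatidylcholine (5.72), Thrsp, of fat synthesis (5.67), and Aldh1l1, of folate metabolism (5.65), were also among the 12 largest rises.

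The largest fall was that of Phlda2, an imprinted gene that limits placental growth, with 1.66 and 1.46 FPKM in the DOX_24h libraries, against 47.4, 126 and 75.2 FPKM in the Veh_24h libraries (−5.46 ± 0.35, limma adjusted p = 3.53e-05; matched −3.91). Hmga1, a chromatin protein abundant in tumours and a known MYC target, had 7.49 and 4.52 FPKM with doxycycline, against 189, 314 and 208 FPKM with vehicle (−5.14 ± 0.27, matched −3.83). Rcc2, of chromosome segregation, had 6.65 and 2.53 FPKM with doxycycline, against 123, 172 and 132 FPKM with vehicle (−4.93 ± 0.39, matched −3.89). In all 3 the Veh_24h libraries were far above the DOX_24h libraries, and lack of overlap was again a condition for the choice. Got1, the cytosolic aspartate aminotransferase of hepatocytes, had 1.25 and 1.62 FPKM with doxycycline, 0.645 and 1.49 FPKM with RMC-4627, and 50.5, 58.7 and 55.1 FPKM with vehicle (−5.10 ± 0.20, matched −4.86). Dazap1, an RNA-binding protein (−5.36), Mrps12, of the mitochondrial ribosome (−5.07), Sf3a2, of the spliceosome (−5.06), Srm, Dusp9, a phosphatase of MAP kinases (−4.97), Chchd1, of the mitochondrial ribosome (−4.89), Cope, of the coat of Golgi vesicles (−4.86), and Bex1, a small brain-enriched protein (−4.81), complete the 12. Each of these 12 fell in the matched fit too, and 10 of them were above 1 FPKM and under 8 FPKM in both DOX_24h libraries.

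**Figure D5:**
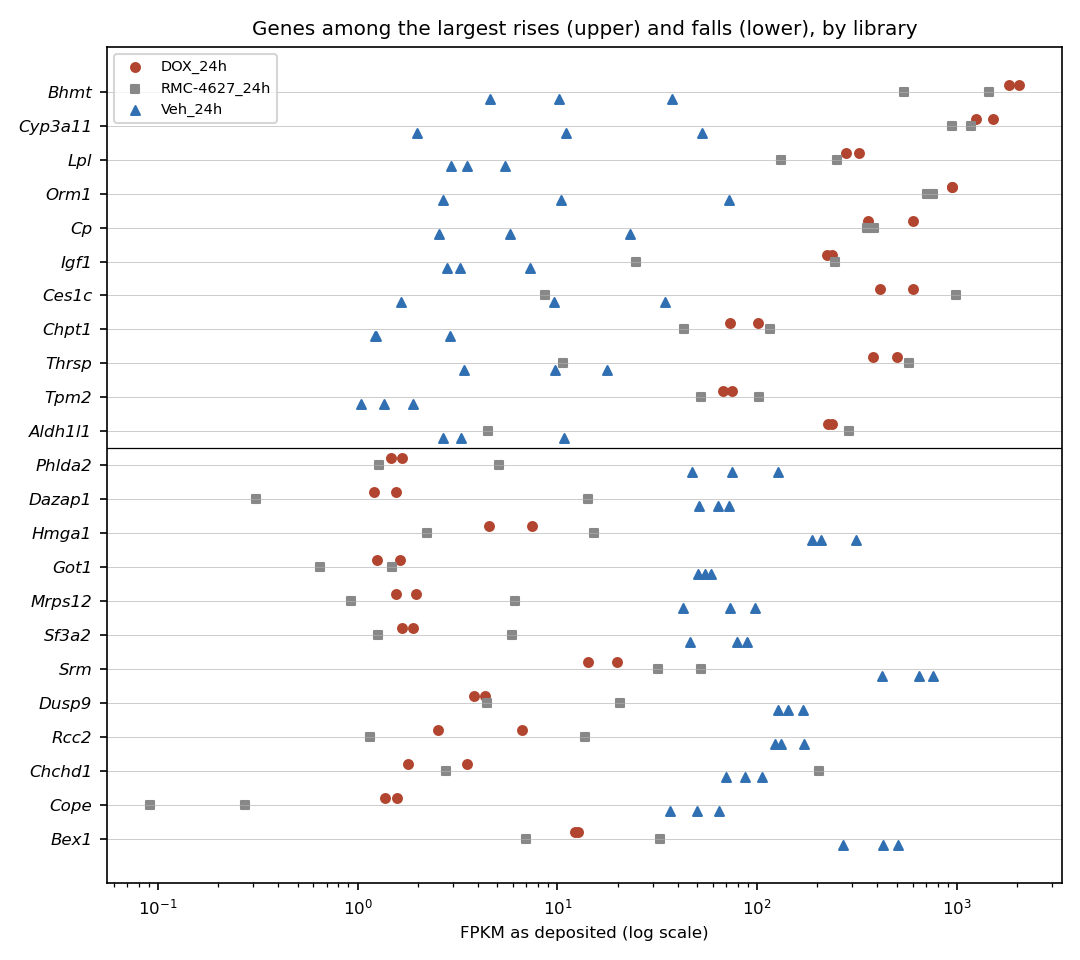
FPKM as deposited (log axis) of 11 genes among the largest rises (upper) and of the 12 largest falls (lower) past the threshold, 1 point a library, for DOX_24h, RMC-4627_24h and Veh_24h. Bhmt has 1822 and 2036 FPKM with doxycycline against 4.61 to 37.5 FPKM with vehicle, and the RMC-4627_24h libraries lie apart from each other for Ces1c, Thrsp, Aldh1l1 and Chchd1.

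The RMC-4627_24h columns share their kind with those of doxycycline, and their list medians are set against the same vehicle libraries. For G2 and mitosis the median difference was −1.22 with doxycycline and −1.61 and −1.25 in the 2 RMC-4627_24h libraries, and for ribosome biogenesis it was −1.34 with doxycycline and −1.22 and −1.15 with RMC-4627. For bile acid and drug metabolism it was 3.15 with doxycycline and 2.24 and 3.26 in the RMC-4627_24h libraries, and for the acute phase 2.47 with doxycycline and 3.12 and 3.54 with RMC-4627. With shared vehicle libraries and a shared kind of column, these values cannot show whether the treatments act alike. The 2 RMC-4627_24h libraries lay on either side of the DOX_24h values for single genes. Odc1 had 36.5 and 21.8 FPKM with doxycycline and 8 and 182 FPKM with RMC-4627, and Igf1 had 223 and 236 FPKM with doxycycline and 245 and 24.7 FPKM with RMC-4627. Over the tested genes Spearman's rho of the DOX_24h libraries was 0.808 and 0.883 with RMC-4627_24h replicate 1 and 0.691 and 0.671 with replicate 2.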

How the data were processed

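RNA from tumour chunks was sequenced on an Illumina HiSeq, per the labels' protocols. The authors deposited 1 table of FPKM values for 24 libraries, with no read counts. Per the submitters' processing notes, STAR 2.5, HTSeq 0.6.1 and mouse build mm 9 were used, in roles not given there. All columns matched a sample. Of 54532 entries, 27 named by dates and 102 sharing a symbol were left out, leaving 54403. Gene names were used, since 1588 entries pair a name with another gene's identifier.

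Genes that reached an FPKM of 1 in all 5 libraries were ranked within each library, and each rank was given the mean log2 FPKM at that rank over the 5 libraries. These values were tested with limma 3.58.1 (R 4.3.3, moderated with a trend, 2-sided), with Benjamini-Hochberg adjustment over all 8546 genes and a threshold of 0.05. The fit was tried on simulated data with few changed genes and with DOX_24h columns distorted in a way that keeps ranks. That trial did not cover differences that move with gene length or GC content. Exon lengths and GC content came from the reference tables, for 8509 tested genes. Promoter sequences came from RefSeq. The depth of the Veh_24h libraries was read from the step of 1 read, and that of the DOX_24h libraries is unknown, so no counting interval is given.

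Named genes are the up to 12 largest rises and 12 largest falls past the threshold without overlap and with a mean of at least 5 FPKM in the higher group (gene models, pseudogenes, histone, Mup, mitochondrial and small RNA genes, antigen receptors and muscle, red cell and pancreatic markers left out), 18 genes chosen whatever their values, and up to 4 members per list and direction with the smallest p. A few of these genes are not reported here. The members and the lists were chosen with earlier results of these data known.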

Additional observations from a re-analysis of the deposited data

Results flagged for a closer look

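Signals in genes that missed the level for testing were far above the vehicle libraries. The skeletal muscle markers summed to 1701 and 1342 FPKM in the DOX_24h libraries, 2348 and 1094 FPKM in the RMC-4627_24h libraries, and 5.30, 5.22 and 6.91 FPKM in the Veh_24h libraries. Of its 17 genes 15 reached an FPKM of 1 in both DOX_24h libraries and 1 did in all Veh_24h libraries, while 8 were at 0 in all Veh_24h libraries and Tnnc2, a fast-muscle troponin, was at 0 in both DOX_24h libraries.

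Heart genes stood beside them. Myh6, the heavy chain of cardiac myosin, had 321 and 171 FPKM in the DOX_24h libraries, 167 and 732 FPKM in the RMC-4627_24h libraries, and 0 in all Veh_24h libraries. Nppa, the atrial natriuretic peptide, had 131 and 112 FPKM in the DOX_24h libraries, 119 and 123 FPKM in the RMC-4627_24h libraries, and 0 in all Veh_24h libraries. Ucp1, the heat-making protein of brown fat, had 20.1 and 45.4 FPKM in the DOX_24h libraries, 216 and 1.02 FPKM in the RMC-4627_24h libraries, and 0 in all Veh_24h libraries. These 3 genes were chosen after their values were seen, and with them, too, treatment and kind of column cannot be told apart.

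The neutrophil markers summed to 160.2 and 113 FPKM in the DOX_24h libraries, 68.7 and 81.1 FPKM in the RMC-4627_24h libraries, and 3.90, 2.25 and 2.74 FPKM in the Veh_24h libraries. S100a8, an abundant protein of neutrophils, had 88.4 and 47.0 FPKM in the DOX_24h libraries, 20.3 and 33.0 FPKM in the RMC-4627_24h libraries, and 0.910, 0.278 and 0.392 FPKM in the Veh_24h libraries. Ltf, of the same list, lay the other way, as given above.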

How the results depend on the processing

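The count of changed genes followed the filter. With an FPKM of at least 5 it was 2656 (1351 higher, 1305 lower), with any value above 0 it was 9634 (4775 and 4859), and with no filter 10562 (5887 and 4675), as fewer or more genes were tested. A joint fit with the RMC-4627_24h libraries gave 3251 (1568 and 1683), and one of all 24 libraries gave 4735. Leaving out 1 library at a time gave 4953 to 5521 changed genes, with 2483 to 2763 higher and 2470 to 2758 lower. Ranks within 20 bins of length gave 5322.

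Same-numbered libraries did not deviate together (correlations 0.03 and 0.02). With only 2 DOX_24h libraries, whose deviations mirror each other, this cannot exclude pairing. With the replicate number as a block 5409 genes changed.

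Of 166 genes followed, 149 kept their call or lack of it in the matched fit, 12 lost the call and 5 turned. A turn was counted only for genes called in at least 1 of the fits. Cdkn1a (−0.41, matched 0.43) and Ncl (0.18, matched −0.86) changed sign but were called in neither, and are among the 149. The turned values were 0.16 for Acaa2, 0.19 for F7, −0.54 for Mad2l1, −1.21 for Nop58 and −0.90 for Srsf3, and within bins of length alone 0.018 for F7, −1.30 for Ncl and −0.86 for Nop58. The cause was not tested beyond these fits. In the joint fit with the RMC-4627_24h libraries 34 of the 166 genes lost the call, among them Odc1 (limma adjusted p = 0.232), Gc (0.271), Decr1 (0.204), Atp5a1 (0.196), Ndufa4 (0.214), H2-K1 (0.0869) and Lyz2 (0.0867), all in the same direction. The count of ribosome biogenesis genes that fell was 22 to 25 with 1 library left out, that of G2 and mitosis genes 21 to 23, and that of acute phase genes that rose 12 to 15. Small counts moved with 1 library too. Without DOX_24h replicate 2 the genes of fatty acid oxidation that fell were 1, without Veh_24h replicate 1 the hepatocyte transcription factors that rose were 2, and without Veh_24h replicate 2 the fetal liver genes that rose were 3. MHC class I genes that fell were 1 without DOX_24h replicate 2, Veh_24h replicate 1 or Veh_24h replicate 2. The class II genes that rose were 0 without DOX_24h replicate 1 or Veh_24h replicate 3, and the interferon response genes that rose were 2 without DOX_24h replicate 1 and 0 without DOX_24h replicate 2 or Veh_24h replicate 1.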
